A study of Mus musculus with 6 samples.

Results

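The transcripts described here are 10 genes linked to hypoxia-inducible factor HIF-1 that act outside glycolysis: Bnip3, Bnip3l, Car9, Ankrd37, P4ha1, P4ha2, Mxi1, Kdm3a, Ddit4 and Higd1a. They were chosen by name from 19505 gene symbols on the array, and each was represented by a single transcript cluster, a probe group that stands for roughly 1 gene. Total RNA came from tubular epithelial cells freed with collagenase from mouse kidneys that had been ischemic for 30 min and then reperfused for 24 h (IR). The mice of the IR PT2385 group (3 arrays) had been injected with PT2385 at 10 mg/kg, 16 h before surgery and again 1, 8 and 20 h after it, and the IR vehicle group (3 arrays) had received vehicle. The groups were read from the sample titles: arrays titled IRPT were taken as IR PT2385 and those titled IR as IR vehicle. The protocol calls the injected compound PT2384 in one place. All 6 arrays come from injured kidneys, and the labels used here give no strain, sex or age and do not say whether each array is a separate mouse. PT2385 is a small molecule that blocks the joining of HIF-2α to ARNT, and it is known as selective for HIF-2α over HIF-1α.

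HIF-1 and HIF-2 are pairs of an oxygen-sensitive alpha subunit with ARNT. In oxygenated cells prolyl hydroxylases mark the alpha subunit for destruction, and in hypoxia it persists and binds a short core motif in its target genes. In kidney tubules HIF-1α is the main alpha subunit, while HIF-2α is known mostly from endothelial and interstitial cells. The genes described here cover several arms of the response: removal of mitochondria, tuning of respiration, acid handling, collagen folding, and control of transcription and growth.

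The core motif was searched in RefSeq promoter windows (GRCm38.p6) that run from 250 bases before to 50 bases after a transcript start. A window was found for 9 of the 10 genes, 13 windows in all. The letters searched were ACGTG and GCGTG on both strands, and a palindromic CACGTG counts once on each strand. ACGTG occurred in at least 1 window of 8 of the 9 genes, against 21.8% of the 27025 genes with a window. Either form occurred in 9 of the 9 genes, against 46.7% of all genes. The windows were also rich in G and C, with a median of 69% against 52.7% over all 32851 windows, and in CpG, with a median of 26 against 7 CpG per window. The part of base composition in these shares was not tested. The stretches below lie before the transcript start on the gene's own strand. They are shown because each of the 9 genes with a window held at least 1 core of either form. The genes were chosen as HIF-1-linked, so the motif counts are not independent of that choice. The capitals mark the core in either orientation, with overlapping cores run together.
Bnip3, chr7:138909507-138909756, minus strand: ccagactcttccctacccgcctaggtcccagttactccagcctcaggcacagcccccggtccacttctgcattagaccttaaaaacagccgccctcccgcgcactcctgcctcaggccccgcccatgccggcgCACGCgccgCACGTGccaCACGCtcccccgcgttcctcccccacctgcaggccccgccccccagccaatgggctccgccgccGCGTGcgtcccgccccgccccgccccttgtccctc
Car9, chr4:43506776-43507025, plus strand: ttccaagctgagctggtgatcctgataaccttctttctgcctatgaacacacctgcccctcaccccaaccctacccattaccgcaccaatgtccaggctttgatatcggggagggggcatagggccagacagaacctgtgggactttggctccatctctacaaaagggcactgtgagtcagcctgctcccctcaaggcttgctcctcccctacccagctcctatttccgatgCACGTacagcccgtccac
P4ha2, chr11:54100674-54100923, plus strand: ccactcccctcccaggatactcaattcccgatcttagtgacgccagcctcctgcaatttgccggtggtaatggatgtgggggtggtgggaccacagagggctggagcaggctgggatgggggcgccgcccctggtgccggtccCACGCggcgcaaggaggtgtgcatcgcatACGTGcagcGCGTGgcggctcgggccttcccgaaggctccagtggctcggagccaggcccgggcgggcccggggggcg
P4ha1, chr10:59323268-59323295, plus strand: tgtgacagagcgCACGTagcgagggctg
Ankrd37, chr8:45999851-45999868, minus strand: cagtgtttgggtACGTGa
Mxi1, chr19:53329335-53329363, plus strand: cctcggcacccgACGTGcactggcggggg
Ddit4, chr10:59951941-59951969, minus strand: agaacgttgcgaACGTGcgcccggtgcct
Higd1a, chr9:121857846-121857874, minus strand: tctagcctGCGTGCGTGgcgttcgcggag
Kdm3a, chr6:71632928-71632956, minus strand: ccgggaggctgtGCGTGtcttgtgagaga

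Bnip3 held 5 matches, 4 of them between 117 and 99 bases before its start. The single match of Car9 began 18 bases before the start, near the place where the human gene has its known hypoxia response element. Ankrd37 had one 6 bases and P4ha1 one 16 bases before the start. Kdm3a had GCGTG alone, and 3 of the 13 windows, 1 of Mxi1 and 2 of Kdm3a, had neither form. A match is a run of letters in these windows and was not tested for binding.

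**Figure D1:**
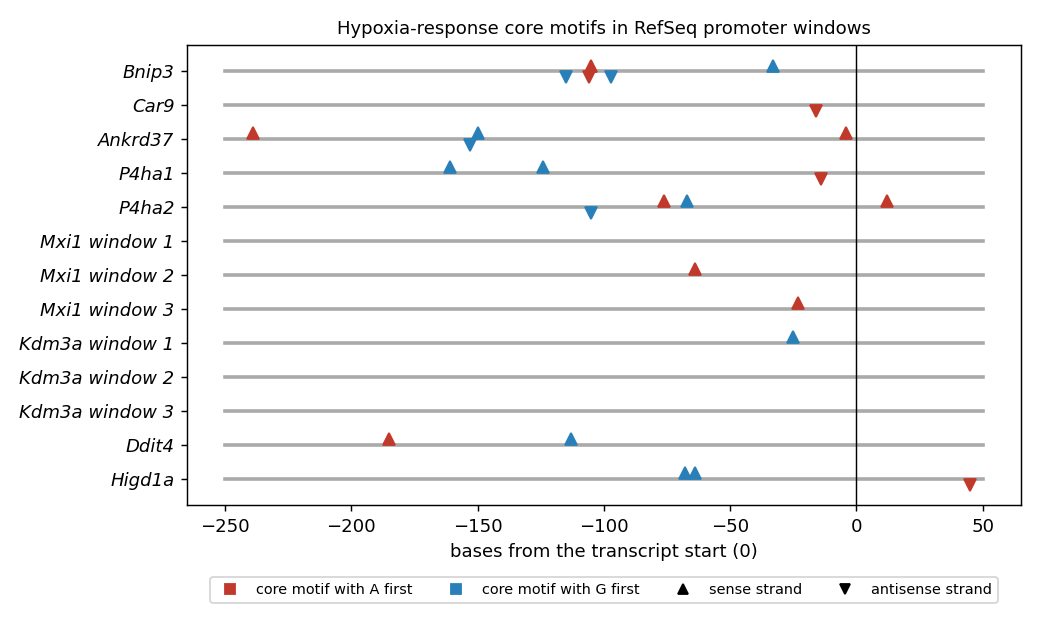
Positions of the core motif in the 13 RefSeq promoter windows of 9 genes. The x axis gives bases from the transcript start, colours give the form of the core and triangles its strand. Most matches lie before the start, and 3 windows are empty.

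None of the 10 genes passed the test between IR PT2385 and IR vehicle. In limma over all 22206 transcript clusters, 0.829% of clusters passed (184 at a Benjamini-Hochberg adjusted p under 0.05), 0.333% with IR PT2385 higher and 0.495% with it lower, and of the 10 genes 0 passed. At an unadjusted p under 0.05 there was 1 gene, Car9, with a positive difference. Of all clusters 14.5% reached that level, 7.94% with a positive and 6.54% with a negative difference. Differences are IR PT2385 minus IR vehicle on the log2 scale. They ran from -0.33 for Ddit4 to 0.40 for Car9, with a median of 0.08, beside a median of 0.02 over all clusters. Positive values were found for 7 genes and negative values for 3. Sizes were also near those at large, with a median absolute difference of 0.14 for the 10 genes and 0.12 over all clusters. The 95% interval of each of the 10 differences lay inside a 2-fold change in either direction, which bounds what these arrays leave room for, gene by gene. That was so for 21556 of the 22206 clusters.

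Y-linked transcripts separated the groups on every array, which touches each difference given here. Eif2s3y, Uty and Kdm5d averaged 3.04 to 3.29 in the IR PT2385 arrays and 8.07 to 8.15 in the IR vehicle arrays, so treatment and the sex of the animals cannot be told apart. Markers of other nephron segments, from lists chosen with earlier results of these data known, moved with the groups as well. Over all clusters 20.7% did not overlap between groups, 11.6% with IR PT2385 higher. All 8 loop and distal tubule markers had higher values on all 3 IR PT2385 arrays, with array means of 9.08 to 10.24 in IR PT2385 and 8.30 to 8.43 in IR vehicle, and 1 of them passed the test (Cldn19). Of 8 collecting duct markers 6 did not overlap between groups, with array means of 8.62 to 8.88 in IR PT2385 and 8.08 to 8.27 in IR vehicle. The 10 proximal tubule markers were all above the 23 background control rows on every array and averaged 10.45 to 11.34 in IR PT2385 and 10.91 to 11.24 in IR vehicle. Of them 3 did not overlap between groups, all lower in IR PT2385: the organic anion transporter gene Slc22a6, which passed the test (-0.97, SE 0.10, adjusted p = 0.00572), Acsm2 (-0.97, SE 0.25, adjusted p = 0.152) and Hnf4a (-0.25, SE 0.11, adjusted p = 0.339). Over all clusters 9.13% did not overlap with IR PT2385 lower. The proximal tubule list had a median of -0.13, and 3 of its differences were positive: Aqp1 (0.50, SE 0.29), Cubn (0.08, SE 0.21) and Lrp2 (0.03, SE 0.21). The 5 neutrophil markers averaged 4.43 to 5.37 in IR PT2385 and 5.30 to 5.60 in IR vehicle. Of them S100a8 (-1.56, SE 0.34, adjusted p = 0.0972) and S100a9 (-1.01, SE 0.31, adjusted p = 0.213) did not overlap and were lower on all 3 IR PT2385 arrays. The others overlapped: Retnlg (-0.24, SE 0.35), Cxcr2 (-0.13, SE 0.15) and Mmp8, which was positive (0.17, SE 0.14). No S100a8 or S100a9 signal exceeded the brightest background row (7.47), so these signals were dim. On IR PT2385 replicate 1 S100a8 (3.94) was below the median of the negative controls (4.38). The endothelial, macrophage and fibroblast lists had medians of 0.06, 0.03 and 0.14. The part of any of these in the values of the 10 genes was not tested. In such bulk RNA, fewer cells of a type and less RNA per cell cannot be told apart.

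**Figure D2:**
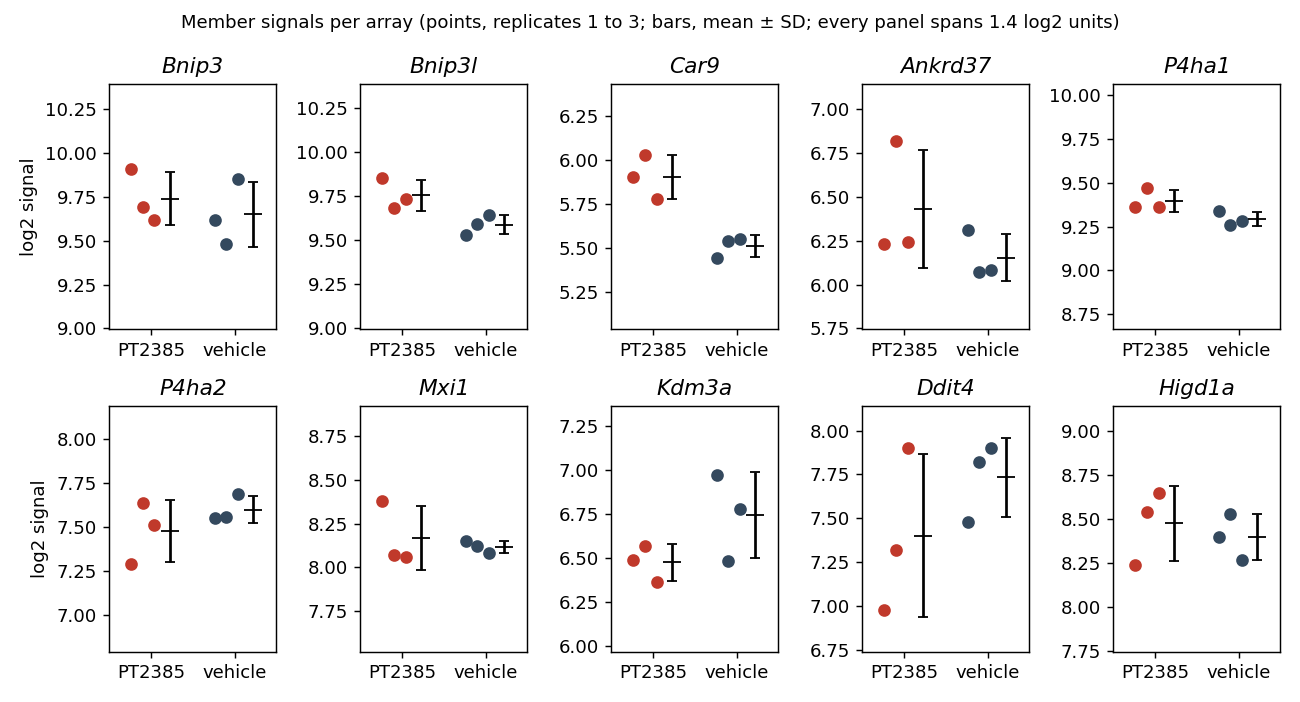
Log2 signal of each gene on the 3 IR PT2385 arrays (red, replicates 1 to 3 from left to right) and the 3 IR vehicle arrays (dark blue), with the mean and SD of each group beside the points. The axes differ in level and are equal in span. Car9, Bnip3l and P4ha1 have all IR PT2385 points above all IR vehicle points, and the other 7 genes overlap.

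Bnip3 (TC0700004474.mm.2) and Bnip3l (TC1400002281.mm.2), which is also called NIX, encode related proteins of the outer mitochondrial membrane that bind LC3-family proteins and so mark mitochondria for autophagy. Bnip3 had log2 signals of 9.91, 9.69 and 9.62 in IR PT2385 replicates 1, 2 and 3, against 9.62, 9.48 and 9.85 in IR vehicle replicates 1, 2 and 3. The groups overlapped across most of their range. The difference was 0.09 (SE 0.13, adjusted p = 0.774), and its interval ran from 0.87-fold to 1.30-fold. Bnip3l had 9.85, 9.68 and 9.73 in IR PT2385, against 9.53, 9.59 and 9.64 in IR vehicle. Its groups did not overlap, by a margin smaller than the spread within either group. The difference was 0.17 (SE 0.09, adjusted p = 0.460), from 0.97-fold to 1.30-fold. Within each array, Bnip3 minus Bnip3l was 0.07, 0.01 and -0.11 in IR PT2385 and 0.09, -0.11 and 0.21 in IR vehicle, so the spacing of the pair overlapped between the groups.

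The clusters whose signals followed these genes most closely over the 6 arrays were sought among 10731 candidates with a mean signal of at least 6. For Bnip3 they were Pds5b, a cohesin regulator gene, with a Pearson correlation of 0.995, the ubiquitin ligase gene Rnf5 with 0.977 and Asb1 with 0.975. For Bnip3l they were the prohibitin gene Phb, with 0.991, the kinase gene Akt2 with 0.986 and the bicarbonate transporter gene Slc4a5 with 0.985. Spearman's rho lay between 0.943 and 1.000 for these 6 genes. With 6 arrays and so many candidates, values this high describe the arrays and were given no test.

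Other mitophagy genes had no call either. Of the 19 measured genes in a list of mitophagy receptors, fission and fusion factors and adaptors, 0 passed, 2 had an unadjusted p under 0.05, both with negative differences, and the median was -0.03. Fundc1, a hypoxia-linked mitophagy receptor gene of the outer membrane, differed by -0.03 (SE 0.09). Sqstm1, which encodes the autophagy adaptor p62, had 10.32, 10.34 and 10.29 in IR PT2385, against 10.81, 10.73 and 10.84 in IR vehicle. The values of Sqstm1 were tight within groups and far apart between them, with a difference of -0.47 (SE 0.09, adjusted p = 0.0591). It passed in 4 of 14 alternative analyses, with adjusted p from 0.0326 to 0.236 over all of them. Tbk1, a kinase gene that acts on such adaptors, had a difference of -0.33 (SE 0.09, adjusted p = 0.156). Of 22 core autophagy genes 0 passed and 1 had an unadjusted p under 0.05, with a median of -0.07. Atg4a, a protease gene for LC3-family proteins, had -0.24 (SE 0.10, adjusted p = 0.309), and Gabarapl1, which encodes one of those proteins, had 0.36 (SE 0.16, adjusted p = 0.356).

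Higd1a (TC0900003275.mm.2) encodes a small inner mitochondrial membrane protein that acts on cytochrome c oxidase and is induced by hypoxia. Its signals were 8.24, 8.54 and 8.65 in IR PT2385, against 8.40, 8.53 and 8.27 in IR vehicle. IR PT2385 held both the lowest and the highest array. The difference was 0.07 (SE 0.13, adjusted p = 0.829), and without IR PT2385 replicate 3 it was -0.01. Of its relatives, Higd1b differed by 0.15 (SE 0.10, adjusted p = 0.503) and Higd2a, a factor of respiratory complex assembly, by -0.02 (SE 0.10, adjusted p = 0.950).

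Car9 (TC0400000438.mm.2), which encodes a membrane-bound carbonic anhydrase that acidifies the outside of hypoxic cells, had the largest difference of the 10 genes. Its signals were 5.90, 6.03 and 5.78 in IR PT2385, against 5.44, 5.54 and 5.55 in IR vehicle. Every IR PT2385 array lay above every IR vehicle array. The difference was 0.40 (SE 0.10), a 1.32-fold higher mean with an interval from 1.12-fold to 1.54-fold, and it did not pass over all clusters (adjusted p = 0.144). Of all clusters 6.79% had a difference at least as large. Over 14 alternative analyses the difference stayed between 0.31 and 0.46, and the adjusted p lay between 0.055 and 0.440. All 6 signals were above the highest array median of the negative controls (4.47). They lay within the range of the background rows (2.41 to 7.47), where a difference can be understated, but 0.40 is not a lower limit. The difference of Car9 was 0.31 with cyclic loess, 0.33 with quantile normalization, 0.35 with arrays centred on their medians and 0.46 with array weights. The array means of the distal nephron marker lists, given above, were higher on the same 3 arrays, though not every marker was. Their part in the value of Car9, as in those of the other genes, was not tested.

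Among 15 other carbonic anhydrase genes 0 passed and 2 had an unadjusted p under 0.05, with differences from -0.65 to 0.50 and a median of 0.13. Car11, a member with no catalytic activity, had 0.50 (SE 0.17, adjusted p = 0.234) and Car15, a membrane-anchored enzyme gene of mice, had 0.45 (SE 0.19, adjusted p = 0.326). Car12, the other membrane enzyme known as hypoxia-induced, differed by 0.01 (SE 0.21). Car2, the cytosolic enzyme of tubule cells, differed by 0.14 (SE 0.10).

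P4ha1 (TC1000000531.mm.2) and P4ha2 (TC1100000617.mm.2) encode alternative catalytic subunits of the prolyl hydroxylase that stabilises the collagen triple helix. P4ha1 had 9.36, 9.47 and 9.36 in IR PT2385, against 9.34, 9.26 and 9.28 in IR vehicle. Its groups did not overlap, but the gap between the nearest arrays was small. The difference was 0.10 (SE 0.09, adjusted p = 0.625). P4ha1 was also the steadiest of the 10 genes, and 96.1% of clusters had a wider SD within groups. P4ha2 had 7.29, 7.64 and 7.51 in IR PT2385, against 7.55, 7.56 and 7.69 in IR vehicle. The groups overlapped, with IR PT2385 replicate 1 the lowest, and the difference was -0.12 (SE 0.12, adjusted p = 0.671). Within each array, P4ha1 minus P4ha2 was 2.07, 1.83 and 1.85 in IR PT2385 and 1.79, 1.71 and 1.59 in IR vehicle. That spacing averaged 1.92 ± 0.14 in IR PT2385 and 1.69 ± 0.10 in IR vehicle (SD, n = 3 each), a description with no test. It did not overlap between the groups, but the nearest arrays were close, at 1.83 in IR PT2385 and 1.79 in IR vehicle. How often other gene pairs do so was not computed.

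The third catalytic subunit gene, P4ha3, had 4.98, 5.04 and 5.17 in IR PT2385, against 4.68, 4.68 and 4.64 in IR vehicle. These dim signals did not overlap, with a difference of 0.40 (SE 0.09, adjusted p = 0.119). Of 14 measured collagen-modifying genes other than P4ha1 and P4ha2, 0 passed and 3 had an unadjusted p under 0.05, all positive, with a median of 0.11. P3h2, which encodes a prolyl 3-hydroxylase of basement membrane collagen, had 0.54 (SE 0.14, adjusted p = 0.152). The hypoxia-linked lysyl hydroxylase genes Plod1 and Plod2 differed by 0.03 each (SE 0.11 and 0.09), and P4hb, the partner subunit of the prolyl hydroxylase, by 0.12 (SE 0.10).

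Mxi1 (TC1900000749.mm.2) encodes a MAX partner that opposes MYC. It had 8.38, 8.07 and 8.06 in IR PT2385, against 8.15, 8.12 and 8.08 in IR vehicle. IR PT2385 replicate 1 stood above the other 5 arrays, which lay close together. The difference was 0.06 (SE 0.11, adjusted p = 0.855), and without IR PT2385 replicate 1 it was -0.05. Of 12 other genes of the MYC-MAX network 0 passed and 2 had an unadjusted p under 0.05, with a median of -0.07. Mlx, which pairs with glucose-sensing partners, had -0.33 (SE 0.10, adjusted p = 0.202) and Mxd3 had 0.32 (SE 0.11, adjusted p = 0.244). Myc itself varied widely, with 7.88, 9.13 and 9.49 in IR PT2385 and 8.90, 9.82 and 9.34 in IR vehicle.

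Kdm3a (TC0600002472.mm.2) encodes a jumonji demethylase of histone H3 lysine 9. It had 6.49, 6.57 and 6.36 in IR PT2385, against 6.97, 6.48 and 6.78 in IR vehicle. IR vehicle replicate 2 lay inside the IR PT2385 range, and the other IR vehicle arrays lay above it. The difference was -0.27 (SE 0.14, adjusted p = 0.401), and without IR vehicle replicate 2 it was -0.40. Of 17 other jumonji genes 0 passed and 3 had an unadjusted p under 0.05, all positive, with a median of -0.05. The smallest p-values belonged to the X-linked Kdm6a (0.45, SE 0.09, adjusted p = 0.0723) and Kdm5c (0.39, SE 0.10, adjusted p = 0.129), which are known to escape X inactivation in mice. Their Y-linked relatives Uty and Kdm5d were near background in IR PT2385, as given above. Kdm6a passed in 3 of 13 alternative analyses. The closest relatives of Kdm3a, Kdm3b and Jmjd1c, differed by -0.07 (SE 0.10) and -0.14 (SE 0.10).

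Ddit4 (TC1000002224.mm.2), also called REDD1, encodes a stress-induced brake on the growth kinase complex mTORC1 that acts through the TSC proteins. It had 6.98, 7.32 and 7.90 in IR PT2385, against 7.48, 7.82 and 7.90 in IR vehicle. The highest array of each group had the same value, and the 2 lowest arrays were both IR PT2385. The difference was the most negative of the 10, at -0.33 (SE 0.22, adjusted p = 0.526), with an interval from 0.56-fold to 1.13-fold. Ddit4 also varied most within groups, and 3.6% of clusters had a wider SD. Without IR PT2385 replicate 3 the difference was -0.58, and without IR PT2385 replicate 1 it was -0.12, neither of them past the threshold. Of 17 other mTORC1 genes 0 passed and 3 had an unadjusted p under 0.05, all negative, with a median of -0.08. Mtor, the kinase gene itself, had 8.94, 8.78 and 8.90 in IR PT2385, against 9.24, 9.29 and 9.16 in IR vehicle. The groups of Mtor did not overlap, with a difference of -0.36 (SE 0.09, adjusted p = 0.157). The arginine sensor gene Castor1 had -0.46 (SE 0.12, adjusted p = 0.144).

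Ankrd37 (TC0800002153.mm.2), which encodes an ankyrin-repeat protein and is a known direct HIF-1 target, had 6.23, 6.82 and 6.24 in IR PT2385, against 6.31, 6.07 and 6.08 in IR vehicle. IR PT2385 replicate 2 stood alone above the other 5 arrays, and all signals of Ankrd37 and of Kdm3a lay within the range of the background rows. The difference was 0.27 (SE 0.17, adjusted p = 0.488), and without IR PT2385 replicate 2 it was 0.08. The position of the highest array differed from gene to gene. IR PT2385 replicate 1 was the highest of all arrays for Bnip3, Bnip3l and Mxi1, and it was the lowest for P4ha2, Ddit4 and Higd1a. The mean deviation of the 10 genes from their 6-array average was -0.037, 0.082 and 0.021 in IR PT2385 replicates 1, 2 and 3, against -0.022, -0.055 and 0.011 in the IR vehicle replicates, so the groups overlapped.

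**Figure D3:**
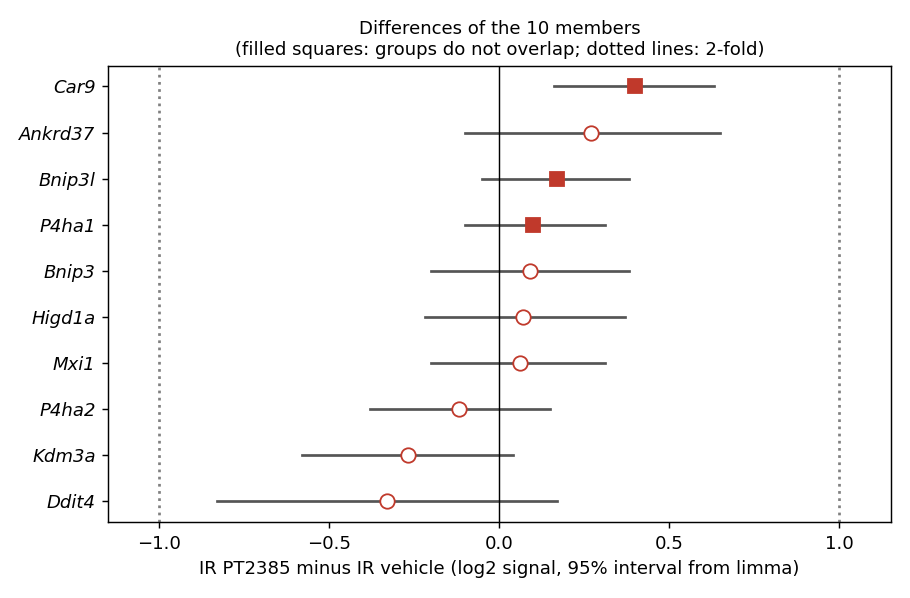
IR PT2385 minus IR vehicle for each gene on the log2 axis, with the 95% interval from limma. Filled squares mark the 3 genes whose groups do not overlap, and dotted lines mark a 2-fold change. Only the interval of Car9 leaves out 0, and all 10 intervals stay inside the dotted lines.

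Counted together, 3 of the 10 genes (Car9, Bnip3l and P4ha1) had groups that did not overlap, all with IR PT2385 higher. Over all clusters 20.7% did not overlap, and 11.6% did so with IR PT2385 higher. No test was made of that count, and with 10 genes it is not read as particular to them. The nearest arrays were 9.68 against 9.64 for Bnip3l and 9.36 against 9.34 for P4ha1. Array medians were also higher in IR PT2385 (6.235 to 6.248) than in IR vehicle (6.196 to 6.199). The count was made on the signals as deposited and was not repeated with other scalings.

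The other hypoxia genes gave a similar picture. Of 36 measured hypoxia-linked genes outside glycolysis and outside the 10, 0 passed, and 4 positive and 4 negative differences had an unadjusted p under 0.05, with a median of 0.03. Those with the smallest p-values were Selenbp1, a selenium-binding protein gene, with -0.72 (SE 0.18, adjusted p = 0.130) and the vasodilator peptide gene Adm with -0.99 (SE 0.27, adjusted p = 0.174). Of 17 measured glycolytic HIF-1-linked genes 0 passed, 4 positive and 1 negative had an unadjusted p under 0.05, and the median was 0.07. The hexokinase gene Hk1 had 9.85, 9.67 and 9.46 in IR PT2385, against 8.93, 9.12 and 8.95 in IR vehicle. The difference of Hk1 was 0.66 (SE 0.12, adjusted p = 0.0566), and it passed in 6 of 14 alternative analyses. The pyruvate kinase gene Pkm had 0.54 (SE 0.11, adjusted p = 0.0764). Among 10 HIF subunit and oxygen sensor genes 0 passed and 0 had an unadjusted p under 0.05, with Arnt2 at -0.29 (SE 0.13) and Hif3a at 0.29 (SE 0.14). Egln3, a prolyl hydroxylase gene that is itself a HIF target, differed by 0.06 (SE 0.17). Over the 173 different genes measured in these 11 lists, 29 had an unadjusted p under 0.05, 17 positive and 12 negative. Their median was -0.01. That level was reached by 14.5% of all clusters, 7.94% with a positive and 6.54% with a negative difference. The list counts at that level were not tested and are not read as particular to the lists.

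**Figure D4:**
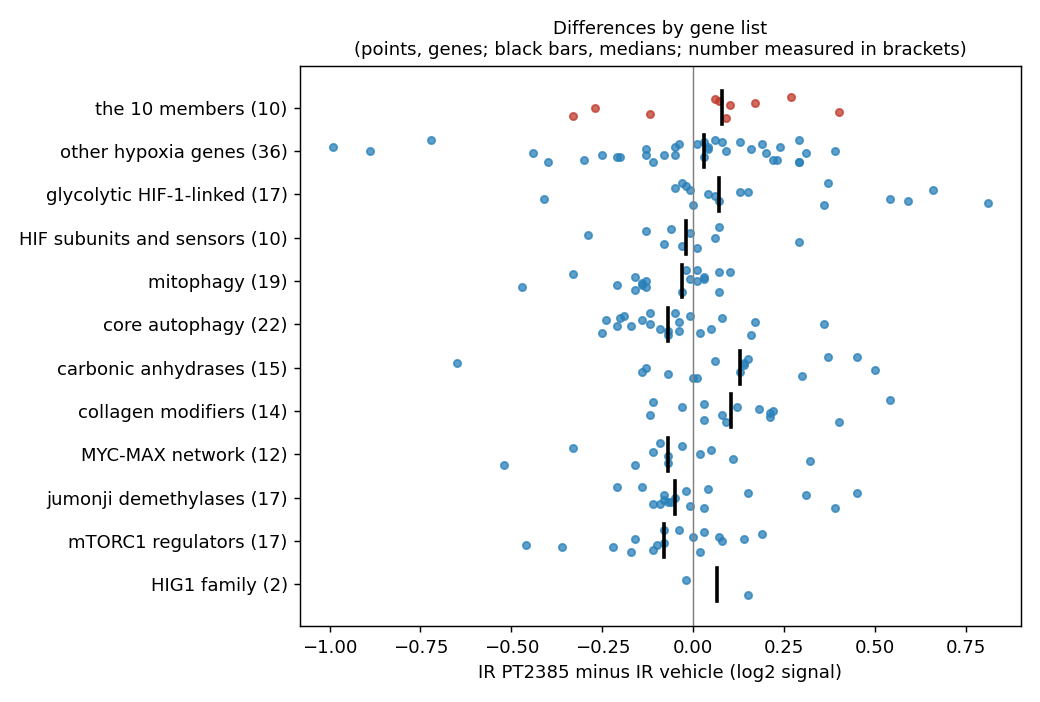
IR PT2385 minus IR vehicle (log2 signal, x axis) for the 10 genes and the 11 lists set beside them. Each point is a gene, black bars are medians, and brackets give the number measured. All medians lie between -0.08 and 0.13, and the widest scatter is among the other hypoxia genes and the glycolytic genes.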

How the data were processed

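The authors deposited 1 log2 signal for each transcript cluster and array, from Affymetrix whole-transcript arrays. The submitters' processing notes name Transcriptome Analysis Console. Its version, the background correction, the normalization and the genome build are, in the sources used here, not given. Of 28846 rows, 6640 control rows were left out, and all 22206 other clusters were tested without a filter. Gene symbols came from the platform annotation (19572 clusters with 1 symbol, 2634 with none). All 10 genes matched, each with 1 cluster, and 173 of 183 other listed genes. Array medians lay between 6.235 and 6.248 in IR PT2385 and between 6.196 and 6.199 in IR vehicle, so they did not overlap. Lower quartiles were higher in IR PT2385 (4.42 to 4.45) than in IR vehicle (4.35 to 4.38). Upper quartiles were lower in IR PT2385 (7.90 to 7.93) than in IR vehicle (7.94 to 7.98). No arrays were copies: at most 0.25% of values were equal in any pair.

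Differences were fitted in R 4.3.3 with limma 3.58.1 (lmFit, eBayes, treatment as the only term, 2-sided, Benjamini-Hochberg over all clusters, threshold 0.05). SE and 95% intervals use the moderated variance, and intervals are not adjusted for the number of genes. Since nothing names separate animals, p-values cover only sample-to-sample spread, possibly technical. The number of arrays limits the precision. The fit was tested on simulated data with the spread of these arrays. It recovered 26% of changes of 0.5 log2 units, 78% of 1 and 98% of 2. Real changes as small as the differences of the 10 genes would thus mostly not pass. All 10 genes are named, and from each list up to 4 that passed or otherwise the 2 with the smallest p, other genes being named for their role after their values were seen. The genes and lists were chosen with earlier results of these data known. Alternatives tried were a replicate block, other scalings, a filter at a mean signal of 5, other variance priors, array weights, omission of the sex chromosomes and of each array. Promoter windows came from RefSeq (GRCm38.p6).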

Additional observations from a re-analysis of the deposited data

How the results depend on the processing

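In all 14 alternative analyses 0 of the 10 genes passed, and 6 or 7 had a positive difference. Their median difference, 0.08, became 0.13 with cyclic loess, 0.13 with quantile normalization and 0.04 with arrays centred on their medians. The sign turned for Mxi1 with array weights (-0.01) and for Higd2a with cyclic loess (0.03) and quantile normalization (0.02). Leaving out each array in turn gave ranges of -0.05 to 0.11 for Mxi1, -0.01 to 0.19 for Higd1a and -0.07 to 0.03 for Higd2a. Car9 had an unadjusted p under 0.05 in every one of the 14. Bnip3l also reached that level with cyclic loess and with quantile normalization, and Ankrd37 with array weights. Kdm3a did so with arrays centred on their medians and without IR vehicle replicate 2. Ddit4 did so with the replicate block and without IR PT2385 replicate 3.
The 184 calls over all clusters became 456 with array weights and ranged from 42 to 179 without single arrays (42 without IR PT2385 replicate 2, and 81, 65 and 72 without IR vehicle replicates 1, 2 and 3). The split of 74 higher and 110 lower became 57 and 135 with arrays centred on their medians. The lists with 0 calls gained some: 1 other hypoxia gene with array weights (Selenbp1), 2 glycolytic genes with array weights or a trended robust prior (Hk1 and Pkm), 1 (Hk1) with the filter, cyclic loess or quantile normalization, and 0 to 1 without single arrays. Sqstm1 gave the mitophagy list 1 call with array weights, median centring, the filter or the robust prior, and Kdm6a gave the jumonji list 1 with array weights, the robust prior or quantile normalization. The cause was not tested.
Same-numbered arrays of the groups did not deviate together (correlations of 0.138, 0.025 and -0.059), so the numbers were not taken as pairs. With the replicate block 178 clusters and 0 of the 10 genes passed. The mean of several clusters per gene was not run, since each of the 10 genes has 1. Signals of Car9, Ankrd37 and Kdm3a within the range of the background rows limit what can be said of their small differences.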
